A study of Mus musculus with 31 samples.

Results

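The effect of poly I:C alone on tumours titled MT was measured in 8 of the 31 libraries of a bulk RNA sequencing series of mouse breast tumours. The libraries were chosen by title: 4 from mice given poly I:C and PBS, and 4 controls from mice given saline and PBS. All 8 carry the genotype label WT. The series crosses poly I:C with phenformin, a drug that blocks respiratory complex I, in 2 tumour models grown orthotopically in syngeneic hosts, and the 8 libraries used here received no phenformin. The design text pairs MT with FVB mice, whereas the tissue and cell line tags of the libraries titled MT name BALBc and a 4T1 line, so the groups follow the titles. RNA was extracted from cell pellets or frozen tissue, which the labels do not tell apart. H2-Ea-ps, a class II alpha chain gene that is functional in BALB/c mice and not in FVB mice, measured 5.42 to 29.1 CPM (counts scaled to library size) in the 8 libraries and 222 to 1011 CPM in the 15 libraries titled 4T1. Doses, treatment times and ages are not given in the sources used here, and the labels do not say whether replicates came from separate animals. The p-values of the main fit measure a spread pooled within the 4 groups of all 16 libraries titled MT, phenformin groups included. That spread may be technical.

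As an artificial double-stranded RNA, poly I:C mimics the RNA of viruses. In endosomes it is bound by Toll-like receptor 3 (Tlr3), which signals through the adaptor Ticam1, and in the cytosol by the helicases Ifih1 (MDA5) and Ddx58 (RIG-I), which signal through Mavs. Both routes switch on interferon regulatory factors and NF-kB, which drive type I interferons with their many target genes, and inflammatory cytokines and chemokines that draw leukocytes into tissue.

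In what follows, values are CPM in replicates 1 to 4 of each group, in that order, ± after a log2 fold change is its SE, and positions are on GRCm38. The 4 controls were not alike. Sox10, a transcription factor of neural crest and of some mammary progenitor cells (ENSMUSG00000033006, chr15:79154908-79165240), measured 177, 224, 177 and 1.32 CPM in the controls and 0.845, 2.36, 1.57 and 1.44 CPM under poly I:C. Krt5, the basal epithelial keratin (ENSMUSG00000061527, chr15:101707070-101712898), measured 30.4, 22, 24.1 and 2231 CPM in the controls and 2509, 1548, 1363 and 2125 CPM under poly I:C. Control replicate 4 thus lay with the poly I:C libraries for both genes, and control replicates 1 to 3 lay apart from all the others. Over the 17857 genes tested, Spearman's rho of log2 CPM was 0.991 within control replicates 1 to 3, 0.913 to 0.918 between them and control replicate 4, and 0.952 to 0.97 between control replicate 4 and the poly I:C libraries. Epithelial genes were present in every library: Epcam measured 414 to 978 CPM in the controls and 482 to 879.7 CPM under poly I:C, Krt8 measured 264 to 409 and 205 to 367 CPM, and neither differed (adjusted p = 0.959 and 0.878). The leukocyte gene Ptprc measured 48.5 to 70.7 CPM in control replicates 1 to 3, 246 CPM in control replicate 4 and 154 to 604 CPM under poly I:C (adjusted p = 0.163). Total counts ran from 12160110 in control replicate 4 to 19295547 in control replicate 1.

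**Figure D1:**
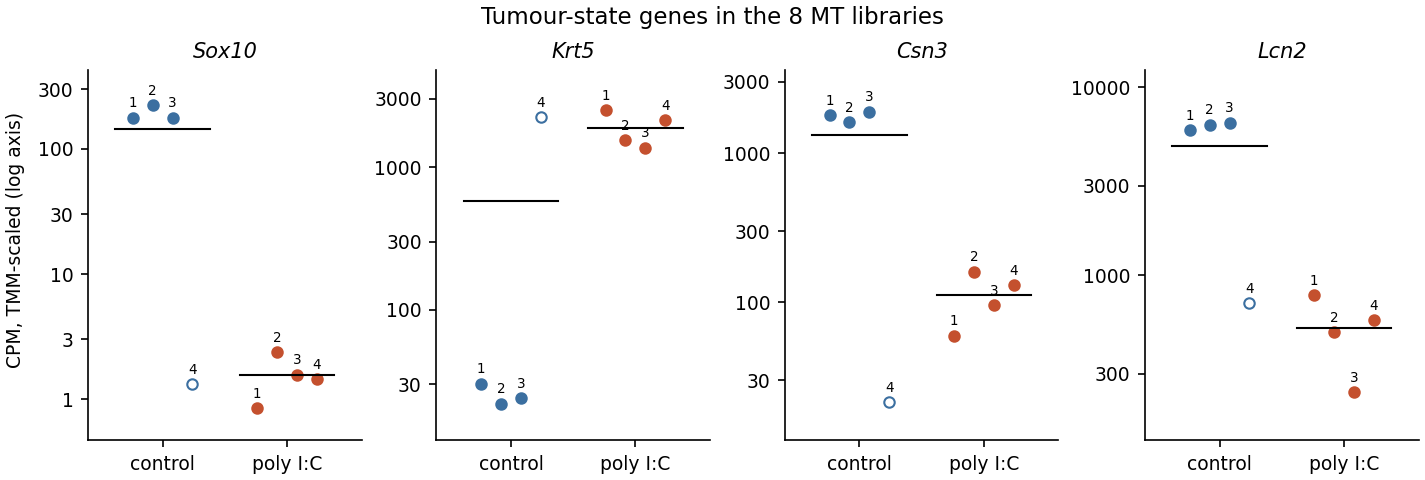
TMM-scaled CPM (log axis) of 4 genes in each library. Points are libraries, numbered by replicate, bars are group means, and the open symbol is control replicate 4. It sits with the poly I:C libraries for Sox10, Krt5 and Lcn2, and below all of them for Csn3 at 21.5 CPM.

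With edgeR's quasi-likelihood test, 3500 of 17857 genes (19.6%) were called between poly I:C and control at a Benjamini-Hochberg adjusted p under 0.05. Of these, 1521 (8.52%) were higher under poly I:C and 1979 (11.1%) were lower, and the median log2 fold change over all genes tested was 0.01. The 8.52% and 11.1% are the background for each count of called genes by list below. The 2 groups of 4 did not overlap in CPM for 4457 genes (25.0%), of which 2835 were called. Among the called genes, control replicate 4 lay nearer to control replicates 1 to 3 than to the poly I:C mean, in log2 CPM, for 1046 of the 1521 higher genes (68.8%) and for 905 of the 1979 lower genes (45.7%). Over all genes tested the share was 37.7%. Control replicate 4 lay inside the range of the poly I:C libraries for 6.11% of the higher genes, 21.3% of the lower genes and 40.6% of all genes tested. Genes are called more readily where the 4 controls lie close together. The gap between called genes and all genes in these shares therefore follows in part from the call itself. Where control replicate 4 had the level of the treated tumours, the difference between the controls cannot be told apart from the treatment.

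**Figure D2:**
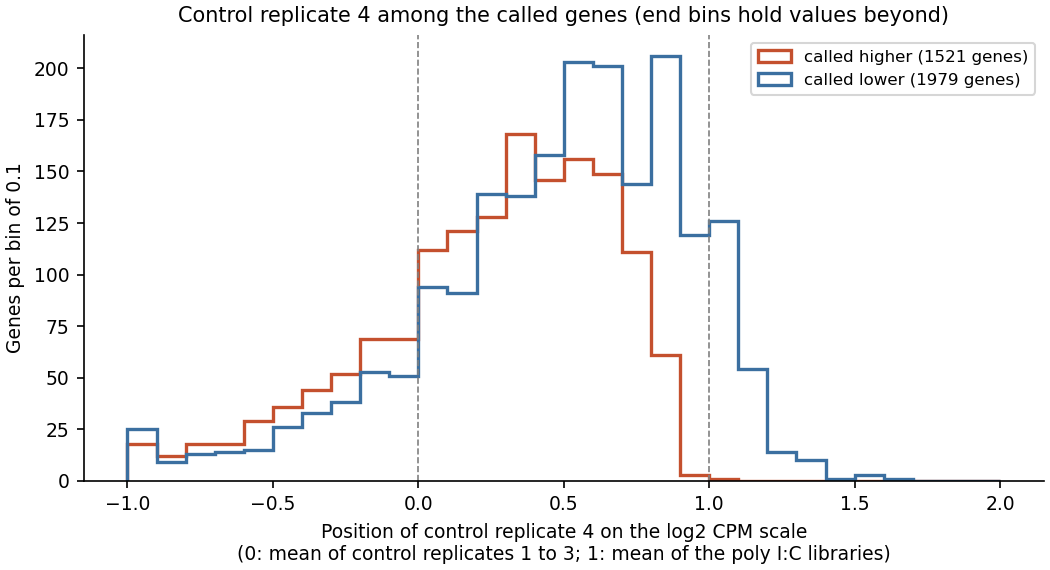
Histogram of the position of control replicate 4 for the 1521 genes called higher and the 1979 called lower, in genes per bin of 0.1. A position of 0 is the mean of control replicates 1 to 3 and 1 is the poly I:C mean, both on the log2 CPM scale. Genes called lower lie further to the right, with 21.3% of them inside the range of the poly I:C libraries, against 6.11% of those called higher.

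Results are also given from 3 further fits, by list for the covariate fit and for the fit against control replicate 4 alone. Without control replicate 4, 6256 of 18116 genes (34.5%) were called. With log2(Krt5/Sox10) entered as a covariate, 1569 of 17857 genes (8.79%) were called, 829 higher (4.64%) and 740 lower (4.14%), of which 811 were called in the same direction without the covariate. With the 10 MT libraries at or under 10 CPM of Sox10, which leave control replicate 4 as the only control, 0 of 18955 genes were called and 2655 (14.0%) had an unadjusted p under 0.05, 1392 higher (7.34%) and 1263 lower (6.66%). The spread of that lone control is taken from the other groups. The shares of all genes just given for this fit are the background for its counts by list below. Leaving out each of the 8 libraries in turn left 1512 calls (without control replicate 2) to 6256 (without control replicate 4), and 1388 genes were called in all 8 of these fits. Among the controls, leaving out replicate 1 gave 2042 calls and replicate 3 gave 2139. In the poly I:C arm, leaving out replicate 1, 2, 3 or 4 gave 2866, 1664, 1970 or 2154.

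None of the 5 sensors and adaptors of poly I:C was called by edgeR. Tlr3 measured 95.1, 79.1, 84.7 and 69.7 CPM in the controls and 85.8, 95.8, 72.1 and 103 CPM under poly I:C (log2 fold change 0.12 ± 0.36, adjusted p = 0.828), and the groups overlapped. Ifih1 (0.43 ± 0.29, adjusted p = 0.305) and Ddx58 (0.35 ± 0.2, adjusted p = 0.215) and the adaptors Ticam1 (0.03 ± 0.18, adjusted p = 0.907) and Mavs (-0.31 ± 0.15, adjusted p = 0.163) were not called either, these values being log2 fold changes with SE. The groups did not overlap for Ddx58 and overlapped for the other 4 genes. The group means of Irf7, which amplifies the interferon response, were 127 ± 34.2 CPM in controls and 193 ± 35.2 CPM under poly I:C (SD, n = 4 each; adjusted p = 0.227). Interferon beta (Ifnb1) had at most 0.163 CPM in any of the 8 libraries and did not pass the filter on low counts.

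Of the 26 genes listed for double-stranded RNA sensing and Toll-like receptors, all of which passed the filter, 6 rose and none fell, with a median log2 fold change of 0.26 against 0.01 over all genes. For sensing and Toll-like receptor genes the covariate fit called 6 of 26, all higher (median 0.38), and against control replicate 4 alone the median was 0.32, with 6 higher and 0 lower of 26 at an unadjusted p under 0.05. Tlr4, the receptor for bacterial lipopolysaccharide (ENSMUSG00000039005, chr4:66827584-66930284), measured 13.3, 10.3, 12.9 and 12.4 CPM in the controls and 31.2, 46.2, 38.6 and 33.9 CPM under poly I:C. The groups were far apart and all 4 controls were alike (log2 fold change 1.62 ± 0.16, adjusted p = 0.000597). Tlr7, an endosomal receptor for single-stranded RNA, measured 3.04, 3.6, 4.78 and 3.96 CPM in the controls and 13.1, 22.7, 19.6 and 12.6 CPM under poly I:C (log2 fold change 2.14 ± 0.36, adjusted p = 0.00255). Neither gene overlapped between groups, and each had an unadjusted p under 0.05 against control replicate 4 alone (log2 fold changes 1.6 and 2.1). Tlr2, Traf3 and Ripk3 also rose, by log2 fold changes of 0.86, 0.36 and 1.62 (adjusted p = 0.0185, 0.0227 and 0.0331). The call of Tlr2 was lost without poly I:C replicate 2 or 3 (adjusted p up to 0.0565). That of Traf3 was lost without control replicate 1 or 2 or poly I:C replicate 2, 3 or 4 (up to 0.0758), and that of Ripk3 without control replicate 1, 2 or 3 or poly I:C replicate 2, 3 or 4 (up to 0.103). The count fell from 6 to 3 without poly I:C replicate 2 or 3.

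Few of the interferon-stimulated genes were called. Of 32 listed genes, 31 were tested, 3 rose and none fell, and the median log2 fold change was 0.4. For interferon-stimulated genes the covariate fit called 1 of 31, higher (median 0.27), and against control replicate 4 alone the median was 0.27, with 2 higher and 0 lower of 31 at an unadjusted p under 0.05. The share called, 3 of 31, was near the 8.52% of all genes that were called higher. Samd9l, a restriction factor for viral translation (ENSMUSG00000047735, chr6:3372257-3399572), measured 73.2, 53.5, 68.8 and 91.3 CPM in the controls and 148, 179.5, 169 and 174 CPM under poly I:C. It rose with no overlap (log2 fold change 1.22 ± 0.19, adjusted p = 0.00197), and its call held without any 1 library. Trim30a, a Trim protein that dampens Toll-like receptor signalling (ENSMUSG00000030921, chr7:104409025-104465193), measured 39.4, 34.3, 34.6 and 112 CPM in the controls and 158, 180.1, 172 and 180.2 CPM under poly I:C (log2 fold change 1.65 ± 0.43, adjusted p = 0.0179). Control replicate 4 lay between the other controls and the treated libraries, and the call was lost without control replicate 1, 2 or 3 (adjusted p up to 0.0658). Ifit2, a binder of viral RNA, rose (log2 fold change 1.14 ± 0.35, adjusted p = 0.0364), a call that was lost without control replicate 1, 2 or 3 or poly I:C replicate 1, 2, 3 or 4 (up to 0.115). Isg15, Ifit1 and Rsad2, also usually read as part of an interferon signature, were not called. Isg15 measured 105, 114, 66.6 and 152 CPM in the controls and 149, 98.4, 90.1 and 132 CPM under poly I:C (adjusted p = 0.872), and Ifit1 and Rsad2 had log2 fold changes of -0.01 ± 0.4 and 0.59 ± 0.49 (adjusted p = 0.985 and 0.399). Leaving out control replicate 1, 2 or 3 left 1 called gene of the list, and leaving out control replicate 4 gave 5.

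Ifng and its receptor pathway held several called genes. Of 15 tested genes among 21 listed interferons, receptors and signalling genes, 3 rose and none fell, with a median log2 fold change of 0.52. For interferons and receptors the covariate fit called 2 of 15, all higher (median 0.41), and against control replicate 4 alone the median was 0.34, with 3 higher and 0 lower of 16 at an unadjusted p under 0.05. Ifng itself (ENSMUSG00000055170, chr10:118441046-118445892) measured 5.32, 4.5, 7.1 and 5.2 CPM in the controls and 10.1, 25.7, 18.2 and 16.6 CPM under poly I:C, with no overlap and with control replicate 4 among the other controls (log2 fold change 1.67 ± 0.39, adjusted p = 0.0113). Jak2, the kinase of the interferon-gamma receptor, measured 77.4, 72.6, 96.6 and 92.4 CPM in the controls and 134, 161, 197 and 146 CPM under poly I:C (log2 fold change 0.91 ± 0.15, adjusted p = 0.00262). The receptor chain Ifngr1 rose by 1.13 ± 0.31 (adjusted p = 0.0236), a call lost without control replicate 1, 2 or 3 or poly I:C replicate 2 or 3 (up to 0.0797).

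Of the 20 listed interferon-gamma GTPases and CXCR3 ligands, all tested, 7 rose and none fell, with a median log2 fold change of 0.35. For GTPases and CXCR3 ligands the covariate fit called 0 of 20, with 7 at an unadjusted p under 0.05 (median 0.78), and against control replicate 4 alone the median was 0.74, with 3 higher and 0 lower of 20 at an unadjusted p under 0.05. Cxcl9, a chemokine that attracts activated T and NK cells (ENSMUSG00000029417, chr5:92321347-92328079), measured 772, 564, 633 and 1110.0 CPM in the controls and 2589, 2564, 3067 and 2612 CPM under poly I:C (log2 fold change 1.81 ± 0.42, adjusted p = 0.0106). Every treated library was above every control, and control replicate 4 was the highest control. Ciita, the master activator of MHC class II genes, measured 52.5, 50.7, 58.7 and 51.7 CPM in the controls and 84, 117, 146 and 97 CPM under poly I:C, with the 4 controls within a narrow range (log2 fold change 1.06 ± 0.22, adjusted p = 0.00597). The other CXCR3 ligands rose as well, Cxcl10 by 1.98 ± 0.57 and Cxcl11 by 1.78 ± 0.5 (adjusted p = 0.0272 and 0.024), and the guanylate-binding protein gene Gbp8 by 1.44 ± 0.38 (adjusted p = 0.0179). The calls of Cxcl10 and Cxcl11 were lost without control replicate 1, 2 or 3 or poly I:C replicate 2, 3 or 4, and without control replicate 1, 2 or 3 or poly I:C replicate 2 or 3 (adjusted p up to 0.0903 and 0.0826), and that of Gbp8 without control replicate 2 or poly I:C replicate 2 (up to 0.0663). The list's count fell to 2 without control replicate 2 or poly I:C replicate 2, to 3 without control replicate 1 or 3 or poly I:C replicate 3, and to 4 without poly I:C replicate 4.

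NF-kB targets and inflammatory cytokines had a median log2 fold change of 1.0 over the 29 of 30 genes tested, with 7 higher and none lower. For NF-kB targets and cytokines the covariate fit called 3 of 29, 2 higher and 1 lower (median 0.51), and against control replicate 4 alone the median was 0.72, with 3 higher and 1 lower of 30 at an unadjusted p under 0.05. Vcam1, an adhesion molecule through which leukocytes leave vessels (ENSMUSG00000027962, chr3:116109949-116129688), measured 43.2, 50.8, 35.1 and 76.4 CPM in the controls and 176, 235, 297 and 209 CPM under poly I:C, with no overlap (log2 fold change 2.16 ± 0.38, adjusted p = 0.00288). Nos2, which makes nitric oxide in activated macrophages (ENSMUSG00000020826, chr11:78920787-78960254), measured 14.2, 12, 19.4 and 16.2 CPM in the controls and 55.5, 77, 45.5 and 42.8 CPM under poly I:C. It rose with the 4 controls alike (log2 fold change 1.84 ± 0.44, adjusted p = 0.013), a call lost without control replicate 2 (adjusted p = 0.0505). Icam1, the ligand of leukocyte integrins, measured 29.6, 27.1, 21.4 and 88 CPM in the controls and 139.7, 151, 176 and 128 CPM under poly I:C (log2 fold change 1.84 ± 0.47, adjusted p = 0.0167), with control replicate 4 well above the other controls. Il1b rose by 1.54 ± 0.46 (adjusted p = 0.0326) and Tnfaip3, the NF-kB inhibitor A20, by 1.42 ± 0.46 (adjusted p = 0.044), and Tnfaip3 measured 45.6 CPM in control replicate 4 against 14 to 17.3 CPM in the other controls. Without control replicate 1, 2 or 3, the calls of Icam1, Il1b and Tnfaip3 were lost (adjusted p up to 0.062, 0.0975 and 0.128), also without poly I:C replicate 2 or 3 for Il1b and Tnfaip3, and without poly I:C replicate 4 for Tnfaip3. The cytokines Il6 and Tnf were not called, with log2 fold changes of 1.88 ± 0.71 and 0.87 ± 0.33 (adjusted p = 0.074 and 0.077). The list held 1 called gene without control replicate 2, 2 without control replicate 1 or 3, 3 without poly I:C replicate 2 or 3, and 12 without control replicate 4.

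Promoters are shown for the called members of the interferon-stimulated and NF-kB lists whose window holds a binding motif of an interferon-activated or NF-kB factor. The windows come from RefSeq on GRCm38.p6 and hold 250 bases before and 50 after a start site, written 5′ to 3′ in lower case with the motif in capitals. The interferon-stimulated response element was searched as GAAA, any 2 bases and GAAA again, on both strands and lay in 3.44% of 32851 windows of all genes, and in 10 of 29 windows of the listed interferon-stimulated genes. The 10-base kB motif of NF-kB was searched on both strands and lay in 4.51% of all windows, and in 11 of 24 windows of the listed NF-kB targets. Among the called genes with a window, Trim30a held the first and Tnfaip3 held the second at 2 places. No match to the searched form of either motif was found in the windows of Samd9l, Ifit2, Icam1, Il1b or Tnfaip2. A site that departs from that form would be missed. A match describes the letters in the window and does not show binding.
Trim30a promoter, chr7:104465144-104465443, minus strand: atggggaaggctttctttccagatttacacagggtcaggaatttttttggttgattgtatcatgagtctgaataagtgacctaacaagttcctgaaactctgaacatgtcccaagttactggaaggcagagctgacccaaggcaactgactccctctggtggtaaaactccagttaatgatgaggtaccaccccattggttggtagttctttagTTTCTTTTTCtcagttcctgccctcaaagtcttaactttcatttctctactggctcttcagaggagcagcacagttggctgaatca
Tnfaip3 promoter, chr10:19015361-19015660, minus strand: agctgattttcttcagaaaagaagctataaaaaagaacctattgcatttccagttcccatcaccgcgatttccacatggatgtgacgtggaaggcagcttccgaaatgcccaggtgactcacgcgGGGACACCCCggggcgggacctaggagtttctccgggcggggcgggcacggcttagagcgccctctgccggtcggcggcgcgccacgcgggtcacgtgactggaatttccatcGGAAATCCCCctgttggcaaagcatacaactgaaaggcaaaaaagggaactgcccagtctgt

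Most macrophage genes rose. Of the 24 listed monocyte and macrophage markers, all tested, 20 rose and none fell, with a median log2 fold change of 1.72. Control replicate 4 lay nearer to the other controls than to the poly I:C mean for 19 of the 20 and for 21 of all 24. Csf1r, the receptor for macrophage colony-stimulating factor (ENSMUSG00000024621, chr18:61100598-61132149), measured 52.2, 66, 57.8 and 52.1 CPM in the controls and 159, 248, 211 and 168 CPM under poly I:C. The controls lay together and all treated libraries lay above them (log2 fold change 1.79 ± 0.21, adjusted p = 0.000898). Mrc1, the mannose receptor CD206 (ENSMUSG00000026712, chr2:14229392-14332057), measured 26, 40.9, 19.9 and 36 CPM in the controls and 267, 225, 145 and 143 CPM under poly I:C (log2 fold change 2.67 ± 0.42, adjusted p = 0.00197). C1qa, a chain of complement C1q made by macrophages (ENSMUSG00000036887, chr4:136895917-136898803), measured 119, 141, 124 and 107 CPM in the controls and 358, 345, 311 and 319 CPM under poly I:C (log2 fold change 1.44 ± 0.23, adjusted p = 0.00197). Neither overlapped between groups. Itgam, the integrin CD11b of myeloid cells, measured 16.3, 25.5, 19.8 and 24.5 CPM in the controls and 65.6, 87.9, 64.7 and 51.5 CPM under poly I:C (log2 fold change 1.65 ± 0.25, adjusted p = 0.00181). Ms4a7 measured 13.4, 19.3, 26.4 and 18.2 and 68.5, 101, 70.6 and 64.9 CPM (log2 fold change 1.98 ± 0.3, adjusted p = 0.00195). Gpnmb, a lysosomal membrane glycoprotein of lipid-laden macrophages, was among the 10 largest increases of called genes without overlap that averaged at least 1 in log2 CPM, with 0.326, 1.14, 0.751 and 2.48 CPM in the controls and 8.32, 18.1, 11.1 and 9.63 CPM under poly I:C (log2 fold change 3.34 ± 0.6, adjusted p = 0.00334).

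The common markers Cd68, Emr1 (F4/80, now Adgre1) and Cd163 rose by log2 fold changes of 1.47 ± 0.28, 1.88 ± 0.38 and 2.29 ± 0.64 (adjusted p = 0.00442, 0.00572 and 0.0234), and the lipid carrier Apoe by 1.91 ± 0.46 (adjusted p = 0.0125). Of these, Cd163 was not called without control replicate 1, 2 or 3 or poly I:C replicate 2 (up to 0.0685). The 4 that were not called were Lyve1, Cx3cr1, Spp1 and Arg1, and Arg1, the arginase of suppressive macrophages, measured 58.5 to 136 CPM in the controls and 88.4 to 271 CPM under poly I:C (adjusted p = 0.255). The list held 16 to 19 called genes when 1 library was left out, 14 with the Krt5 to Sox10 covariate, and against control replicate 4 alone 17 of 24 had an unadjusted p under 0.05, all higher. The summed CPM of the list ran from 2395 to 3344 in the controls and from 3466 to 4439.9 under poly I:C. In bulk tumour RNA, more macrophages and more RNA of these genes per macrophage cannot be told apart, which holds for every cell type below.

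**Figure D3:**
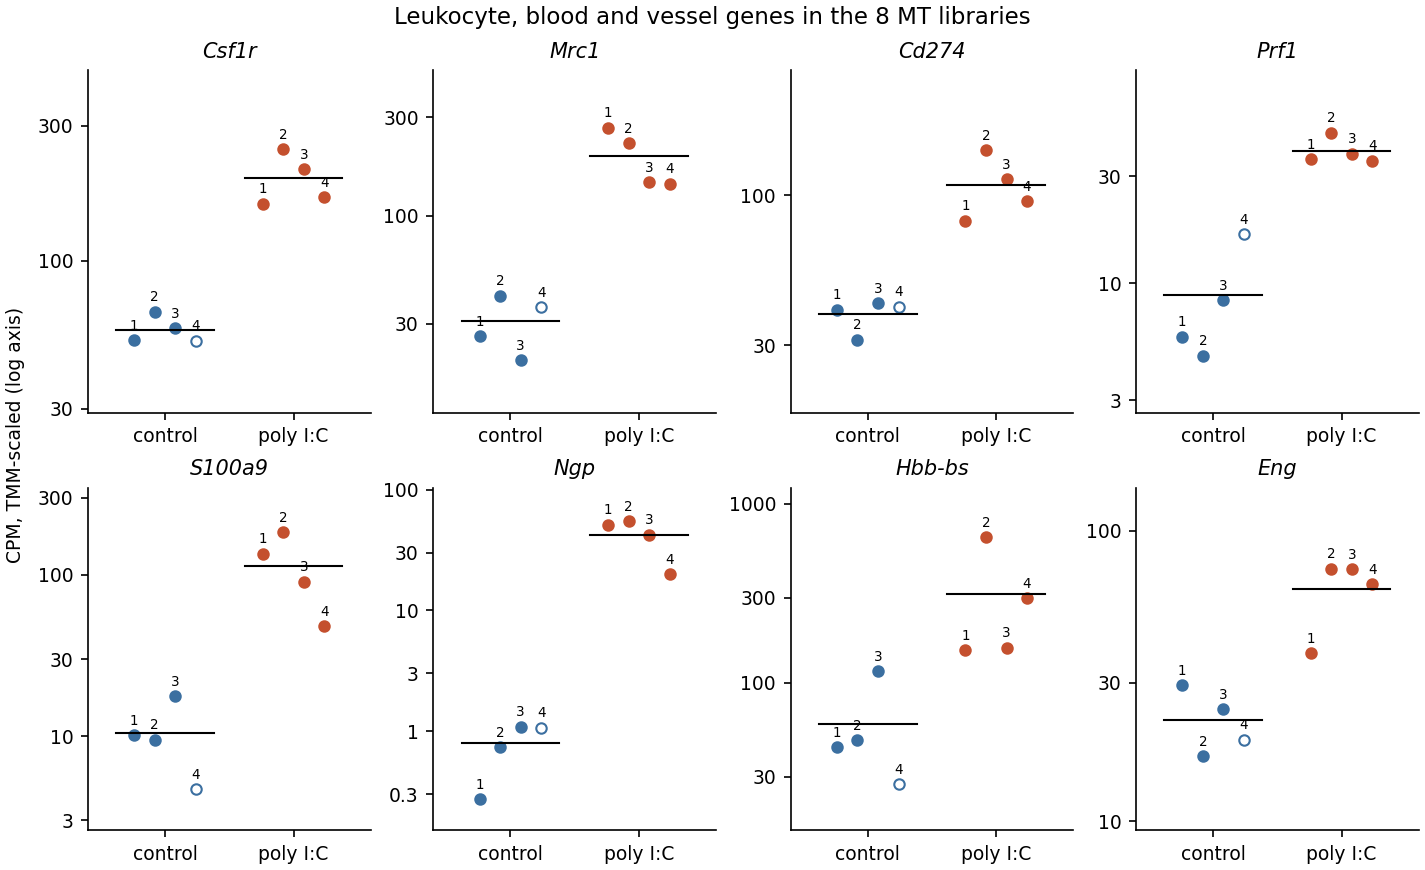
TMM-scaled CPM (log axis) of 8 genes in each library, with replicate numbers beside the points, group means as bars and control replicate 4 as the open symbol. All 8 show the treated libraries above the controls, and control replicate 4 lies within or near the other controls for Csf1r (52.1 CPM), Mrc1 (36 CPM), Cd274 (40.9 CPM) and Ngp (1.07 CPM).

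Genes of antigen presentation by MHC class II rose, and only 1 of class I was called. Of 11 class II genes, 6 rose and none fell, with a median log2 fold change of 1.06. For class II genes the covariate fit called 1 of 11, higher (median 0.29), and against control replicate 4 alone the median was 0.42, with 5 higher and 0 lower of 11 at an unadjusted p under 0.05. Ctss, the protease that trims the invariant chain (ENSMUSG00000038642, chr3:95526786-95556403), measured 261, 327, 348 and 323 CPM in the controls and 962, 1183, 999 and 904 CPM under poly I:C (log2 fold change 1.68 ± 0.23, adjusted p = 0.00145). H2-Ab1, the beta chain of the class II molecule I-A (ENSMUSG00000073421, chr17:34257689-34269419), measured 335, 466, 389.9 and 753 CPM in the controls and 1027, 1209.8, 1379 and 1113 CPM under poly I:C. The treated libraries were above all controls, of which control replicate 4 was the highest (log2 fold change 1.28 ± 0.31, adjusted p = 0.0124). H2-Aa and the invariant chain Cd74 rose by 1.28 ± 0.32 and 0.85 ± 0.21 (adjusted p = 0.0149 and 0.0161), calls that were lost without control replicate 2 (adjusted p = 0.0552 for H2-Aa), for Cd74 also without control replicate 1 (up to 0.0527). Of 19 class I genes, H2-M3 alone was called, at a log2 fold change of 0.55 ± 0.16 (adjusted p = 0.026, lost without 6 of the 8 libraries: control replicate 1, 2 or 3 or poly I:C replicate 2, 3 or 4), and the median was -0.07. Without control replicate 4, 3 class I genes were called, 1 higher and 2 lower. For class I genes the covariate fit called 0 of 19, with 1 at an unadjusted p under 0.05 (median 0.1), and against control replicate 4 alone the median was 0.06, with 0 higher and 0 lower of 19 at an unadjusted p under 0.05. The light chain B2m measured 3918 to 4475 CPM in the controls and 3649 to 4430.3 CPM under poly I:C (adjusted p = 0.784), and Psmb10 and Erap1 had adjusted p = 0.0533 and 0.0554 at log2 fold changes of -0.47 ± 0.16 and 0.5 ± 0.17.

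Checkpoint genes rose in 8 of 12 cases, with none lower and a median log2 fold change of 1.72. For checkpoint genes the covariate fit called 3 of 12, all higher (median 0.73), and against control replicate 4 alone the median was 0.91, with 5 higher and 0 lower of 12 at an unadjusted p under 0.05. Pdcd1lg2, the ligand PD-L2 (ENSMUSG00000016498, chr19:29410919-29471161), measured 2.93, 5.88, 4.85 and 5.94 CPM in the controls and 28.6, 31.6, 30.1 and 24.4 CPM under poly I:C, an increase with no overlap (log2 fold change 2.55 ± 0.36, adjusted p = 0.00157). Cd274, the ligand PD-L1 (ENSMUSG00000016496, chr19:29367455-29388095), measured 39.9, 31.3, 42.1 and 40.9 CPM in the controls and 81.5, 144, 114 and 95.3 CPM under poly I:C (log2 fold change 1.49 ± 0.24, adjusted p = 0.00197). Havcr2, the receptor TIM-3 of myeloid and exhausted T cells, measured 11.8, 9.24, 15.5 and 16.2 CPM in the controls and 39.1, 68.4, 48.2 and 46.7 CPM under poly I:C (log2 fold change 1.94 ± 0.24, adjusted p = 0.00104). In all 3 the controls were alike and the calls held without any 1 library. The receptor PD-1 (Pdcd1) rose by 2.25 ± 0.59 (adjusted p = 0.0183), with control replicate 4 at 16.6 CPM and the other controls at 3.59 to 7.99 CPM, and was not called without control replicate 1 or 2 or poly I:C replicate 2 (up to 0.0649). The list held 4 called genes without control replicate 1 or 2 or poly I:C replicate 2, 5 without control replicate 3 or poly I:C replicate 4, and all 12 without control replicate 4.

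More neutrophil genes rose than fell, while the summed level of both lists was highest in control replicates 1 to 3. Of 25 listed neutrophil markers 23 were tested, Ly6g and Cxcr1 falling below the filter, and 14 rose and 2 fell with a median log2 fold change of 1.79. Among the 17 granule and oxidase genes, 11 rose and 2 fell with a median of 1.6. For neutrophil markers the covariate fit called 5 of 23, all higher (median 1.79), and against control replicate 4 alone the median was 1.89, with 12 higher and 0 lower of 23 at an unadjusted p under 0.05. For granule and oxidase genes the covariate fit called 4 of 17, all higher (median 1.15), and against control replicate 4 alone the median was 1.41, with 9 higher and 0 lower of 17 at an unadjusted p under 0.05. The summed CPM of the neutrophil markers was 2096 to 4302 in control replicates 1 to 3, 253 in control replicate 4 and 299 to 672 under poly I:C. The sum of the granule and oxidase genes was 6386 to 7215, 1505 and 2137 to 3229 CPM in the same order. In control replicates 1 to 3, Lcn2 made up most of the granule sum, and S100a8 with Slpi most of the marker sum. The sums therefore follow these genes, whose values are given below, more than the rest of their lists. S100a9, a subunit of calprotectin (ENSMUSG00000056071, chr3:90692632-90695721), measured 10.1, 9.48, 17.7 and 4.7 CPM in the controls and 135, 183, 90.8 and 47.9 CPM under poly I:C. The treated libraries were all above the controls (log2 fold change 3.44 ± 0.58, adjusted p = 0.00247). Csf3r, the receptor for granulocyte colony-stimulating factor (ENSMUSG00000028859, chr4:126024550-126044440), measured 6.36, 6.62, 7.03 and 2.89 CPM in the controls and 18.1, 32, 21.7 and 19.1 CPM under poly I:C (log2 fold change 1.99 ± 0.34, adjusted p = 0.00275). Hdc, the histamine-forming enzyme of granulocytes, measured 2.83, 3.02, 1.91 and 1.82 CPM in the controls and 10.5, 10.1, 9.5 and 6.58 CPM under poly I:C (log2 fold change 1.93 ± 0.27, adjusted p = 0.00157). They had the lowest unadjusted p of the neutrophil and granule lists against control replicate 4 alone, 9.05e-05 and 0.000183.

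Several of the 10 largest increases, ranked in the same way, were granule genes. Ngp, neutrophilic granule protein (ENSMUSG00000032484, chr9:110419747-110423012), measured 0.272, 0.736, 1.09 and 1.07 CPM in the controls and 51.2, 54.7, 42.3 and 19.8 CPM under poly I:C, the first in that ranking (log2 fold change 5.74 ± 0.89, adjusted p = 0.00197). Mpo, myeloperoxidase of the primary granules, measured 0.0543, 0.409, 0.341 and 0.743 CPM in the controls and 9.88, 14.1, 8.11 and 4.04 CPM under poly I:C (log2 fold change 4.57 ± 0.76, adjusted p = 0.00245). Ctsg, cathepsin G, had 4 reads in all 4 controls together and 185 in the treated libraries (log2 fold change 5.16 ± 1.09, adjusted p = 0.00696), and the cysteine protease inhibitor Stfa2 had 5 and 263 reads (log2 fold change 5.42 ± 0.7, adjusted p = 0.00115). The collagenase Mmp8 and the resistin-like Retnlg rose by 3.39 ± 0.54 and 4.03 ± 0.81 (adjusted p = 0.00201 and 0.00532), and Cybb, the catalytic subunit of the phagocyte oxidase, by 1.6 ± 0.24 (adjusted p = 0.00179). All 7 calls held without any 1 library. The reads of Stfa2 may be split with near-identical stefin copies.

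The exceptions described here are genes at which control replicate 4 stood far from the other controls. S100a8, the partner of S100a9 in calprotectin (ENSMUSG00000056054, chr3:90668978-90670035), measured 1085, 793, 2484 and 4.21 CPM in the controls and 116, 156, 82 and 40.8 CPM under poly I:C. In control replicates 1 to 3 it was higher than under poly I:C and in control replicate 4 it was lower, so it was not called (log2 fold change -3.47 ± 1.29, adjusted p = 0.0719). Against control replicate 4 alone its log2 fold change was 4.55 (unadjusted p = 0.00495), close to the 4.6 of S100a9. Lcn2, lipocalin 2, which epithelium makes as well as neutrophils (ENSMUSG00000026822, chr2:32384633-32388252), measured 5929, 6343, 6496 and 711 CPM in the controls and 785, 498, 239 and 579 CPM under poly I:C. Its fall (log2 fold change -3.21 ± 0.85, adjusted p = 0.0191) rested on control replicates 1 to 3, at 5929 to 6496 CPM. Slpi, a protease inhibitor shared by epithelium and neutrophils, followed the same pattern, with 1195 to 1683 CPM in control replicates 1 to 3 against 84.6 CPM in control replicate 4 (log2 fold change -4.09 ± 1.08, adjusted p = 0.0189). Prtn3, proteinase 3, measured 28, 29.1, 33.5 and 1.57 CPM in the controls and 5.39, 4.48, 3.75 and 2.42 CPM under poly I:C (log2 fold change -2.52 ± 0.83, adjusted p = 0.047), a call lost without any 1 library other than control replicate 4 (up to 0.115). Camp, the cathelicidin, measured 40.6, 25.5, 58.3 and 0.495 CPM in the controls and 7.28, 13.7, 7.26 and 3.17 CPM under poly I:C (adjusted p = 0.151). These 2 genes were chosen after their values were seen. The granule list held 7 called genes without control replicate 2 or poly I:C replicate 2 or 3 and 8 without control replicate 1 or 3. Without control replicate 4 it held 17, of which 14 were higher and 3 lower. The calls of Lcn2 and Slpi were lost without poly I:C replicate 2 and, for Lcn2, without control replicate 2 or poly I:C replicate 3, or for Slpi poly I:C replicate 4 (adjusted p up to 0.0602 and 0.0639).

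Red cell genes rose beside the neutrophil and granule genes, and their part in those results was not tested. Of 9 listed genes 7 were tested and 6 rose, with a median log2 fold change of 2.63. For red cell genes the covariate fit called 6 of 7, all higher (median 3.66), and against control replicate 4 alone the median was 3.73, with 8 higher and 0 lower of 8 at an unadjusted p under 0.05. Slc4a1, the band 3 anion exchanger of red cells (ENSMUSG00000006574, chr11:102348824-102366203), measured 0.217, 0.245, 0.615 and 0 CPM in the controls and 2.99, 15, 1.39 and 3.17 CPM under poly I:C (log2 fold change 4.32 ± 0.88, adjusted p = 0.00584). Hbb-bs, an adult beta globin, measured 43.8, 47.8, 116 and 27.1 CPM in the controls and 152, 649.7, 157 and 298 CPM under poly I:C, highest in poly I:C replicate 2 (log2 fold change 2.42 ± 0.77, adjusted p = 0.0414). Alas2, the heme-forming enzyme of erythroid cells, rose by 2.64 ± 0.69 (adjusted p = 0.0179). The summed CPM of the list ran from 74 to 320.4 in the controls and from 452 to 1589 under poly I:C. The calls of Hbb-bs and Alas2 were lost without control replicate 1, 2 or 4 or poly I:C replicate 2, 3 or 4 and control replicate 1 or 2 or poly I:C replicate 2 respectively (adjusted p up to 0.141 and 0.0677). The list held 2 called genes without poly I:C replicate 2 and 3 without control replicate 1 or 2 or poly I:C replicate 4. Globin genes occur in near-identical copies, so reads may be split between them.

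Cytotoxic genes rose in 7 of 17 cases with a median log2 fold change of 1.59 and none lower. For cytotoxic genes the covariate fit called 2 of 17, all higher (median 0.76), and against control replicate 4 alone the median was 1.24, with 4 higher and 0 lower of 17 at an unadjusted p under 0.05. Klrk1, the activating receptor NKG2D (ENSMUSG00000030149, chr6:129610323-129623864), measured 12.5, 11.5, 16.1 and 11.9 CPM in the controls and 27.5, 48, 45.7 and 35.9 CPM under poly I:C, with no overlap (log2 fold change 1.59 ± 0.24, adjusted p = 0.00181). Prf1, perforin (ENSMUSG00000037202, chr10:61297833-61304680), measured 5.76, 4.74, 8.4 and 16.5 CPM in the controls and 35.7, 46.8, 37.8 and 35.1 CPM under poly I:C (log2 fold change 2.13 ± 0.38, adjusted p = 0.00346). Fasl, the death ligand, measured 1.52, 0.899, 2.32 and 2.97 CPM in the controls and 5.2, 11, 6.6 and 7.56 CPM under poly I:C (log2 fold change 1.97 ± 0.38, adjusted p = 0.00462). Control replicate 4 was the highest control for Prf1 and Fasl. None of the 19 T cell markers was called by edgeR, with 2 at an unadjusted p under 0.05, and DESeq2 called 1. There were 0 at an unadjusted p under 0.05 against control replicate 4 alone, where their median was -0.34, and 4 were called without control replicate 4. For T cell markers the covariate fit called 0 of 19, with 0 at an unadjusted p under 0.05 (median -0.46). Cd3e measured 7.44 to 13.4 CPM in control replicates 1 to 3, 65.9 CPM in control replicate 4 and 22.2, 49.7, 100.3 and 35.7 CPM under poly I:C (adjusted p = 0.408). Cd8a, Il2ra and Icos were not called either, with log2 fold changes of 1.39 ± 0.65, 1.59 ± 0.59 and 1.73 ± 0.95 (adjusted p = 0.14, 0.0698 and 0.205). The cytotoxic list held 4 called genes without control replicate 2 or poly I:C replicate 3.

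Antibody and B cell genes were uneven within both arms. Igkc, the kappa light chain constant region, measured 3.1, 17.3, 12.6 and 312 CPM in the controls and 32.7, 25.5, 2693 and 241 CPM under poly I:C, and the groups overlapped (adjusted p = 0.338). Poly I:C replicate 3 and control replicate 4 also held the most Ms4a1 (CD20), at 0.585, 1.03, 147 and 9.23 CPM in the treated libraries and 0.109, 0.0817, 0.273 and 79.6 CPM in the controls (adjusted p = 0.794). Igj, the joining chain of secreted antibodies, had a log2 fold change of 2.98 ± 2.18 (adjusted p = 0.34). Of the 13 B and plasma cell genes tested, Xbp1 was called lower (log2 fold change -0.99 ± 0.33, adjusted p = 0.049), a factor that secretory epithelium uses too, and it measured 547 to 584 CPM in control replicates 1 to 3 against 201 CPM in control replicate 4. That call was lost without any 1 library other than control replicate 4 (adjusted p up to 0.129). Among 15 dendritic cell genes, Itgax (CD11c) rose (log2 fold change 1.79 ± 0.28, adjusted p = 0.00197), as did Clec9a of cross-presenting cells (log2 fold change 1.3 ± 0.37, adjusted p = 0.0248), the latter not without control replicate 1, 2 or 3 or poly I:C replicate 2 or 3 (up to 0.0805). Ccl17 had a log2 fold change of 2.04 ± 0.7 (adjusted p = 0.0537). In all, 2 of the 15 dendritic cell genes were called higher, against 8.52% of all genes. For dendritic cell genes the covariate fit called 1 of 15, higher (median -0.01), and against control replicate 4 alone the median was 0.25, with 3 higher and 0 lower of 15 at an unadjusted p under 0.05. For B and plasma cell genes the covariate fit called 0 of 13, with 0 at an unadjusted p under 0.05 (median -0.63). The dendritic list held 1 called gene without control replicate 1, 2 or 3 or poly I:C replicate 2 or 3, 4 without poly I:C replicate 1 and 6 without control replicate 4. None of 9 tested mast cell genes was called by edgeR, 3 had an unadjusted p under 0.05 and DESeq2 called 4, while 5 were called by edgeR without control replicate 4. The proteases Cma1, Cpa3 and Tpsab1 measured 2.92 to 5.63, 2.66 to 6.24 and 3.15 to 6.66 CPM under poly I:C, against 0.163 to 1.98, 0.205 to 1.4 and 0.326 to 3.14 CPM in the controls (adjusted p = 0.0669, 0.0705 and 0.122).

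Vessel and stromal genes were higher under poly I:C. Of 16 endothelial markers 13 rose and none fell, with a median log2 fold change of 1.29. For endothelial markers the covariate fit called 3 of 16, all higher (median 0.88), and against control replicate 4 alone the median was 0.94, with 8 higher and 0 lower of 16 at an unadjusted p under 0.05. Eng, endoglin, a co-receptor for TGF-beta (ENSMUSG00000026814, chr2:32646595-32682669), measured 29.4, 16.8, 24.3 and 19.1 CPM in the controls and 37.9, 74.1, 73.7 and 65.5 CPM under poly I:C (log2 fold change 1.48 ± 0.26, adjusted p = 0.00319). Cdh5, the cadherin of endothelial junctions (ENSMUSG00000031871, chr8:104101625-104144511), measured 37, 27.4, 23.7 and 27.2 CPM in the controls and 60, 94.2, 87.2 and 77.8 CPM under poly I:C (log2 fold change 1.47 ± 0.27, adjusted p = 0.00397). Tie1 rose by 1.36 ± 0.26 (adjusted p = 0.00426). All 3 separated the groups with control replicate 4 among the controls. Of 23 fibroblast and matrix genes 12 rose and none fell, with a median of 1.27. For fibroblast and matrix genes the covariate fit called 1 of 23, higher (median 0.97), and against control replicate 4 alone the median was 0.98, with 7 higher and 0 lower of 23 at an unadjusted p under 0.05. Pdgfra, a growth factor receptor of fibroblasts (ENSMUSG00000029231, chr5:75152292-75198215), measured 15.2, 14.6, 11.3 and 17.2 CPM in the controls and 32.7, 54.1, 47.8 and 44.8 CPM under poly I:C (log2 fold change 1.62 ± 0.3, adjusted p = 0.00384). Col3a1, type III collagen, measured 259, 228, 186 and 196 CPM in the controls and 695, 781, 589 and 611 CPM under poly I:C (log2 fold change 1.62 ± 0.36, adjusted p = 0.00902). Fbn1, fibrillin 1, rose by 1.44 ± 0.29 (adjusted p = 0.00522), and Col6a5, a collagen VI chain among the 10 largest increases by that ranking, by 4.11 ± 1.14 (adjusted p = 0.0236, lost without control replicate 1, 2 or 3 or poly I:C replicate 2, up to 0.0746). Tnfsf18, the ligand GITRL that endothelium and myeloid cells display, was another of these 10, with 0.761, 0.327, 0.546 and 0.495 CPM in the controls and 3.7, 9.27, 12.3 and 8.83 CPM under poly I:C (log2 fold change 3.96 ± 0.52, adjusted p = 0.00117). Without control replicate 2 or 3 the endothelial list held 7 called genes, and without control replicate 1 or 2 the fibroblast list held 7 or 6.

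Fat cell genes differed by library. Plin1, which coats lipid droplets, measured 0.652, 0.409, 0.205 and 5.12 CPM in the controls and 3.77, 52, 11.3 and 9.23 CPM under poly I:C (log2 fold change 3.6 ± 1.16, adjusted p = 0.0432). Fabp4, a fatty acid carrier, measured 106, 54, 88.4 and 209 CPM in the controls and 215, 858, 281 and 287 CPM under poly I:C (adjusted p = 0.0546). Poly I:C replicate 2 held most of both. Pparg, the adipogenic factor that macrophages share, rose by 2.2 ± 0.49 (adjusted p = 0.00855). In all, 2 of 13 adipocyte genes were called, all higher, against 8.52% of all genes called higher. For adipocyte genes the covariate fit called 0 of 13, with 2 at an unadjusted p under 0.05 (median 1.88), and against control replicate 4 alone the median was 1.36, with 1 higher and 0 lower of 13 at an unadjusted p under 0.05. The adipocyte list held 12 called genes without control replicate 4, 4 without poly I:C replicate 1 and 1 without any other single library. The call of Plin1 was lost without control replicate 1, 2 or 3 or poly I:C replicate 2, 3 or 4 (up to 0.167). Acta1, skeletal muscle actin, measured at most 0.888 CPM in any of the 8 libraries (adjusted p = 0.838). None of the 6 muscle genes of 15 that passed the filter was called by edgeR, 0 had an unadjusted p under 0.05, DESeq2 called 1 and 1 was called without control replicate 4. The genes Mb, Tnni2 and Mylpf had adjusted p = 0.197, 0.645 and 0.755.

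Basal genes of the tumour epithelium depended on control replicate 4. Of 24 basal keratin and myoepithelial genes, all tested, 2 were called higher with all 4 controls, 18 without control replicate 4, and 0 with any other single library left out. Their median log2 fold change was 1.54 with all controls, 3.44 without control replicate 4 and 0.08 against control replicate 4 alone. For basal genes the covariate fit called 0 of 24, with 0 at an unadjusted p under 0.05 (median 0.05). Krt5 is a member of that list and part of the covariate, and 2 of 24 called higher is near the 8.52% of all genes. Krt14, the partner of Krt5, measured 28.8, 29.8, 22.2 and 808 CPM in the controls and 823, 529.6, 579 and 651 CPM under poly I:C (adjusted p = 0.373). Col17a1, a hemidesmosome collagen, measured 11.9, 6.38, 6.83 and 209 CPM in the controls and 323, 267, 191 and 303 CPM under poly I:C (adjusted p = 0.191). The 2 called genes were Lama3 (log2 fold change 2.33 ± 0.76, adjusted p = 0.0444) and Dst (log2 fold change 1.15 ± 0.37, adjusted p = 0.0445), both of the hemidesmosome. Their calls were lost with any 1 library out other than control replicate 4 (adjusted p up to 0.126 and 0.136). Myh11, a smooth muscle myosin of myoepithelium, had a log2 fold change of 1.63 ± 0.62 (adjusted p = 0.0779). The squamous genes Krt10, Dsc2 and Krt4 had adjusted p = 0.168, 0.196 and 0.247, with 0 of 11 tested squamous genes called by edgeR or DESeq2, 0 at an unadjusted p under 0.05, 7 called without control replicate 4 and none at an unadjusted p under 0.05 against it alone.

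Over the 16 MT libraries, the genes most like Krt5 by Pearson's r of log2 CPM were Snai2, Bmp7, Krt17, Id4 and Clec11a, each with r of 1.0 to 2 decimals, and among those most like Sox10 were Atp12a, Stk32b, Kcne1l and Wnk4, each with r of 0.99. These correlations describe libraries that share treatments and tumour states. Snai2 had a mean of 3.37 CPM in control replicates 1 to 3, 111 CPM in control replicate 4 and 73.4 to 141 CPM under poly I:C. Wnk4, a kinase that regulates ion transporters, had a mean of 29.4 CPM, 1.49 CPM and 1.03 to 1.79 CPM in the same order. The 4 genes named with Sox10 were called lower and the 5 like Krt5 were not called (adjusted p = 0.291 to 0.589).

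Large decreases also followed control replicates 1 to 3. Csn3, the milk protein kappa-casein (ENSMUSG00000001622, chr5:87925579-87932665), measured 1792, 1609, 1889.8 and 21.5 CPM in the controls and 60, 161, 95.4 and 130.4 CPM under poly I:C. It was called lower (log2 fold change -3.57 ± 1.12, adjusted p = 0.038) although control replicate 4 had less than any treated library, and against that control alone its log2 fold change was 2.37 (unadjusted p = 0.0207). The call was lost without any 1 library other than control replicate 4 (adjusted p up to 0.0926). Il12a, the p35 subunit of interleukin 12, measured 28.4, 21.7, 37.7 and 1.07 CPM in the controls and 0, 0.363, 0.545 and 0.231 CPM under poly I:C (log2 fold change -6.24 ± 1.38, adjusted p = 0.00845). Pipox, a peroxisomal oxidase, measured 33.8, 43, 38.9 and 1.73 CPM in the controls and 0.13, 0.182, 1.15 and 0.346 CPM under poly I:C (log2 fold change -5.99 ± 1.43, adjusted p = 0.0122). Tgfb2, a transforming growth factor, measured 107, 120.1, 86.6 and 13.6 CPM in the controls and 13.1, 11.9, 8.23 and 12.9 CPM under poly I:C (log2 fold change -2.83 ± 0.73, adjusted p = 0.0175). Il12a, Pipox and Tgfb2 were picked from called genes without overlap between groups, so their lack of overlap is fixed by that choice. In each of them control replicate 4 was nearer to the poly I:C mean than to the other controls. Fkbp6 had 750 reads in the 4 controls and 2 in the 4 treated libraries, a ratio of 429.6 per sequencing depth with a 95% interval of 119 to 3554 for counting error only, and its fitted log2 fold change (-8.35 ± 1.71, adjusted p = 0.00599) depends on the prior count. Control replicate 4 measured 0.248 CPM of it and the other controls 12.9 to 20.3 CPM. The rest of the 10 largest decreases without overlap were Nptx1, Trpm3, Syne4, Ncmap, Hapln2 and Cystm1, with log2 fold changes of -3.99 ± 1.07, -3.8 ± 0.89, -3.44 ± 0.76, -3.11 ± 0.75, -2.84 ± 0.66 and -2.8 ± 0.57. None of the 9 of these genes tested against control replicate 4 alone had an unadjusted p under 0.05 there, and the calls of Nptx1 and Tgfb2 did not hold without control replicate 1 or poly I:C replicate 2, 3 or 4 for the first and control replicate 2 or poly I:C replicate 2 or 3 for the second (up to 0.0581 and 0.0545).

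Other identity genes were split. Among 17 tested neural crest genes Sox10 fell (log2 fold change -6.53 ± 1.39, adjusted p = 0.00718). Its fall rested on control replicates 1 to 3, since control replicate 4 lay inside the range of the poly I:C libraries. Mitf, which macrophages and osteoclasts also use, measured 10.1, 8.91, 10.1 and 11.4 CPM in the controls and 16, 23.9, 18.5 and 18.6 CPM under poly I:C and rose (log2 fold change 0.93 ± 0.18, adjusted p = 0.00426). Ednrb, the endothelin B receptor, measured 9.29, 5.39, 6.35 and 6.11 CPM in the controls and 21.3, 33.1, 18.6 and 25.1 CPM under poly I:C and rose as well (log2 fold change 1.85 ± 0.36, adjusted p = 0.00459). Against control replicate 4 alone, a fit whose libraries were chosen by their Sox10 level, the log2 fold changes of Mitf and Ednrb were 0.76 and 2.01 (unadjusted p = 0.0591 and 0.000864). Among 20 genes of epithelial-mesenchymal transition, Zeb2 rose (log2 fold change 1.38 ± 0.25, adjusted p = 0.00354), as did Prrx1 (log2 fold change 1.05 ± 0.31, adjusted p = 0.0318). Esrp2, a splicing factor of epithelium, fell (log2 fold change -1.19 ± 0.39, adjusted p = 0.0453). Snai1 fell too (log2 fold change -3.18 ± 0.88, adjusted p = 0.0234), with 26.6 to 31.4 CPM in control replicates 1 to 3 against 1.73 CPM in control replicate 4. Near Snai1 on chr2, Spata2 and Ube2v1 had log2 fold changes of -1.3 and -1.35, and the part of that location was not tested. The calls of Snai1 and Esrp2 were lost without any 1 library other than control replicate 4, and that of Prrx1 without control replicate 1, 2 or 3 or poly I:C replicate 2, 3 or 4 (adjusted p up to 0.0698, 0.114 and 0.0993). The transition list held 10 called genes without control replicate 4, 2 without poly I:C replicate 1 and 1 without any other single library, and the neural crest list held 11 without control replicate 4. For transition genes the covariate fit called 1 of 20, higher (median -0.04). For neural crest genes the covariate fit called 1 of 17, higher (median -0.2). The 2 transition genes called in each direction, of 20, are near the background of 8.52% and 11.1%. Vim, vimentin, measured 371 to 491 CPM in control replicates 1 to 3, 1529 CPM in control replicate 4 and 1332 to 1789 CPM under poly I:C (adjusted p = 0.0771). Of 23 luminal genes, Csn3 fell and Pgr, the progesterone receptor, rose (log2 fold change 3.31 ± 1.07, adjusted p = 0.0424, lost without 6 of the 8 libraries, up to 0.113), and Elf3 had adjusted p = 0.0568. Without control replicate 4, 8 luminal genes were called, 4 in each direction, 1 was called without poly I:C replicate 1 and 0 without any other single library. For luminal genes the covariate fit called 0 of 23, with 4 at an unadjusted p under 0.05 (median -0.43).

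**Figure D4:**
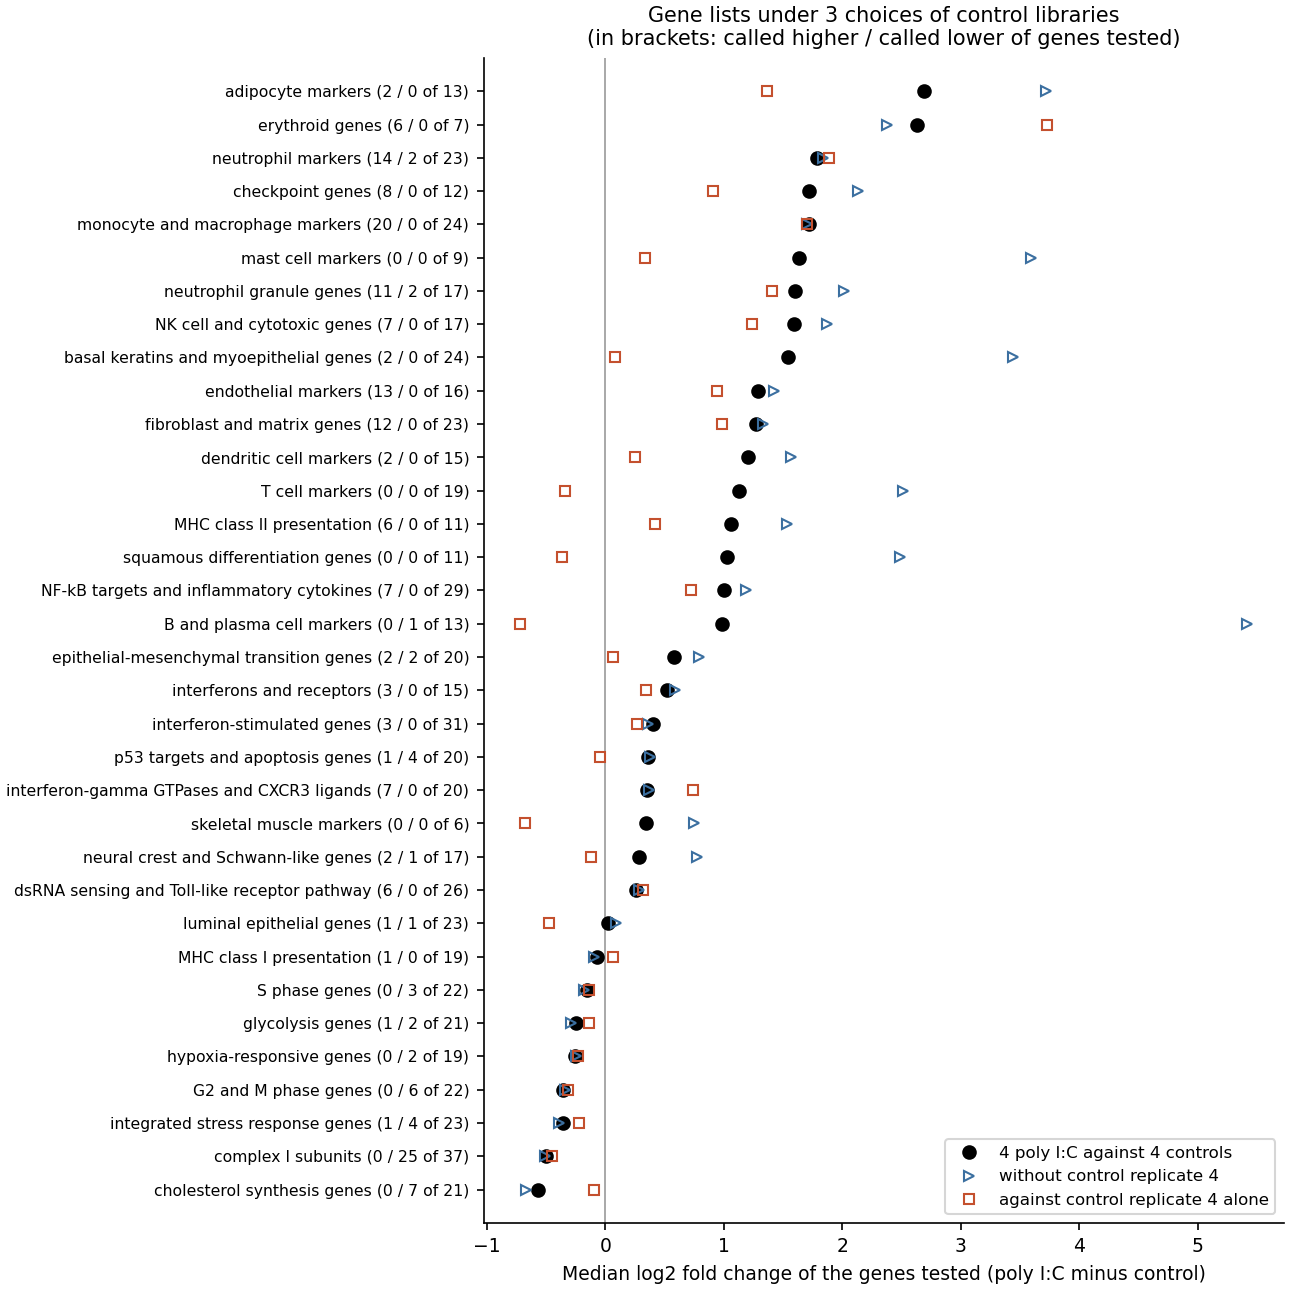
Median log2 fold change of the tested genes of the 34 gene lists, with all 4 controls (filled circles), without control replicate 4 (triangles) and against control replicate 4 alone (squares). The 3 symbols coincide near 1.7 for macrophage markers and near -0.5 for complex I subunits, and for basal keratins they spread from 0.08 to 3.44.

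Subunits of mitochondrial complex I were lower. Of 37 nuclear-encoded subunits, all tested, 25 fell and none rose, against 11.1% of all genes called lower, and the median log2 fold change was -0.5. Ndufa3, an accessory subunit (ENSMUSG00000035674, chr7:3617373-3620327), measured 53.9, 54.8, 58.8 and 53.6 CPM in the controls and 40.3, 35.6, 30.5 and 34.2 CPM under poly I:C (log2 fold change -0.65 ± 0.09, adjusted p = 0.00157). Ndufa2 measured 78, 98.1, 104 and 76.7 CPM in the controls and 56.5, 41.1, 41.5 and 43.3 CPM under poly I:C (log2 fold change -0.97 ± 0.14, adjusted p = 0.00163). Ndufb3 measured 93.9, 106, 89 and 84.4 CPM in the controls and 67.8, 55.8, 52.5 and 58.4 CPM under poly I:C (log2 fold change -0.67 ± 0.1, adjusted p = 0.00181). In all 3, every treated library was below every control, and control replicate 4 was the lowest control but nearer to the other controls than to the poly I:C mean. The count was 17 to 27 with 1 library left out, 19 with the covariate, and against control replicate 4 alone 19 had an unadjusted p under 0.05, all lower, with a median of -0.45.

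Gene length moved with this result, and its part was not tested. Over the 14851 genes averaging 1 or more in log2 CPM, the log2 fold change rose with summed exon length (Spearman's rho 0.15 across genes, which are not independent replicates). The median was -0.22 in the shortest decile (up to 1052 bases) and 0.14 in the longest decile (9442 bases and over), and 18.0% of the shortest decile were called lower against 4.51% of the longest. Complex I subunits have 419 to 8086 bases, with a median of 1643, and the 12038 other genes in that range had a median of -0.05 with 13.6% called lower. Sets chosen after their values were seen showed falls as well: 29.1% of 79 cytosolic ribosomal protein genes, 48.1% of 77 mitochondrial ribosomal protein genes and 51.4% of 37 proteasome subunit genes were called lower, with medians of -0.4, -0.38 and -0.39, and none of these was called higher. None of the 9 mitochondrially encoded protein genes above that level was called by edgeR, and 0 had an unadjusted p under 0.05 (median -0.18).

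**Figure D5:**
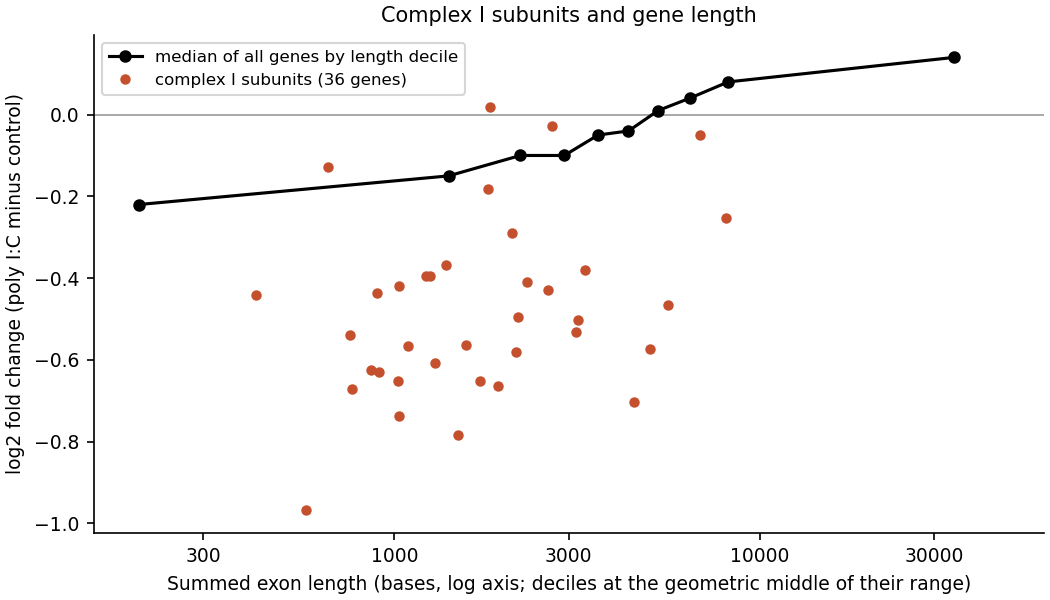
log2 fold change of 36 complex I subunits averaging 1 or more in log2 CPM (points) against summed exon length in bases (log axis), with the median of all genes in each decile of length (line). Of the 36 subunits, 33 lie under the median of all genes in their length decile, and these medians run from -0.22 to 0.14.

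Cholesterol synthesis genes fell in 7 of 21 tested cases, with none higher and a median of -0.57. Mvd, an enzyme of the mevalonate pathway, measured 36.7, 48.2, 39.1 and 14.4 CPM in the controls and 12.5, 9.75, 13.4 and 14.5 CPM under poly I:C (log2 fold change -1.46 ± 0.35, adjusted p = 0.013). Pmvk of the same pathway measured 74.5, 87.9, 72.9 and 25.8 CPM in the controls and 24.6, 22.1, 24.1 and 28.2 CPM under poly I:C (log2 fold change -1.4 ± 0.35, adjusted p = 0.0145). Both had control replicate 4 at the level of the treated libraries. Fdps, which makes farnesyl diphosphate, fell by 1.3 ± 0.31 in log2 (adjusted p = 0.0117). Control replicate 4 was nearer to the poly I:C mean than to the other controls in each of the 7, none had an unadjusted p under 0.05 against it alone, and the median there was -0.1. For cholesterol synthesis genes the covariate fit called 0 of 21, with 0 at an unadjusted p under 0.05 (median -0.1). The list held 1 called gene without control replicate 2, 3 or 4 without control replicate 1 or any poly I:C replicate, and 11 without control replicate 4. The calls of Mvd and Pmvk were lost without control replicate 2 (adjusted p = 0.0507 and 0.0545).

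Glycolysis and hypoxia genes were mostly not called. Of 21 glycolysis genes 1 rose and 2 fell. These shares are near or under the background of 8.52% called higher and 11.1% called lower. For glycolysis genes the covariate fit called 1 of 21, higher (median -0.09), and against control replicate 4 alone the median was -0.14, with 1 higher and 1 lower of 21 at an unadjusted p under 0.05. Pfkfb3, a regulator of glycolytic flux, rose (log2 fold change 1.01 ± 0.24, adjusted p = 0.0113). Slc16a1, a lactate transporter, fell (log2 fold change -1.21 ± 0.28, adjusted p = 0.0106), as did Aldoc, an aldolase (log2 fold change -3.06 ± 0.84, adjusted p = 0.0224). Aldoc measured 708 to 821 CPM in control replicates 1 to 3, 74.9 CPM in control replicate 4 and 55.1 to 87.1 CPM under poly I:C, and its call was lost without control replicate 1 or 2 or poly I:C replicate 2, 3 or 4 (up to 0.0709). Without control replicate 4, 5 glycolysis genes were called, 3 higher and 2 lower. Of 19 hypoxia-responsive genes Bnip3l and Adm fell (log2 fold changes -0.91 ± 0.26 and -1.42 ± 0.46, adjusted p = 0.025 and 0.0451), calls lost without control replicate 1, 2 or 3 or poly I:C replicate 2, 3 or 4 (up to 0.0821 and 0.134), where the list held 0, and Pdk1 had adjusted p = 0.0863. The share called lower, 2 of 19, was near the 11.1% of all genes. For hypoxia-responsive genes the covariate fit called 0 of 19, with 0 at an unadjusted p under 0.05 (median -0.14), and against control replicate 4 alone the median was -0.23, with 0 higher and 0 lower of 19 at an unadjusted p under 0.05. Among 23 genes of the integrated stress response, 4 fell and 1 rose with a median of -0.36. Of all genes, 11.1% were called lower and 8.52% higher. For stress response genes the covariate fit called 0 of 23, with 4 at an unadjusted p under 0.05 (median -0.23), and against control replicate 4 alone the median was -0.22, with 0 higher and 0 lower of 23 at an unadjusted p under 0.05. Atf4, its central factor, measured 308, 383, 302 and 295 CPM in the controls and 303, 151, 146 and 191 CPM under poly I:C. Poly I:C replicate 1 lay at the level of the controls (log2 fold change -0.71 ± 0.19, adjusted p = 0.0224), and the call was lost without control replicate 2 or poly I:C replicate 2, 3 or 4 (up to 0.0804). Psat1, of serine synthesis, and Cebpb fell by 0.74 ± 0.19 and 1.5 ± 0.42 in log2 (adjusted p = 0.0178 and 0.0245), and Slc7a11, the cystine transporter, rose by 1.71 ± 0.57 (adjusted p = 0.0479, lost without any 1 library other than control replicate 4, up to 0.139). Near Cebpb on chr2, Tmem189 and Ptpn1 had log2 fold changes of -1.57 and -0.54, and the part of that location was not tested. The list held 0 called genes without control replicate 2 or poly I:C replicate 2 or 3, 2 without control replicate 1 or 3, 1 without poly I:C replicate 4 and 8 without control replicate 4. The calls of Psat1 and Cebpb were lost without control replicate 2 or poly I:C replicate 2 or 3, and without control replicate 1, 2 or 3 or poly I:C replicate 2, 3 or 4 (up to 0.0692 and 0.0796).

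Some mitotic genes fell. Of 22 G2 and M phase genes 6 were lower and none higher, with a median of -0.36. For G2 and M genes the covariate fit called 2 of 22, all lower (median -0.34), and against control replicate 4 alone the median was -0.32, with 0 higher and 4 lower of 22 at an unadjusted p under 0.05. Ube2c, a ubiquitin-conjugating enzyme of the anaphase-promoting complex (ENSMUSG00000001403, chr2:164769898-164778822), measured 249, 294, 253 and 133 CPM in the controls and 77.5, 66.1, 74.6 and 82.4 CPM under poly I:C. Control replicate 4 lay between the other controls and the treated libraries (log2 fold change -1.63 ± 0.26, adjusted p = 0.00197), and the difference from it alone was -0.82 (unadjusted p = 0.00198). Aurka, a spindle kinase, measured 172, 222, 195 and 69.7 CPM in the controls and 47.6, 40.4, 47.4 and 50 CPM under poly I:C (log2 fold change -1.83 ± 0.36, adjusted p = 0.0051). Tpx2, its activator, fell by 0.7 ± 0.15 in log2 (adjusted p = 0.00784). Ube2c, Aurka and Tpx2 all lie on chr2, where other genes nearby fell too. Snx21, Acot8 and Zswim3, near Ube2c, had log2 fold changes of -1.15, -1.07 and -1.16. Cstf1 and Fam210b, near Aurka, had -1.45 and -1.92. Pltp, near Ube2c, and Cass4, near Aurka, went the other way (1.65 and 1.79). The part of this location was not tested. Mki67 and Top2a, common markers of proliferation, were not called (log2 fold changes 0.11 and 0.12, adjusted p = 0.723 and 0.508). Without control replicate 2, 3 of the list were called. Of 22 S phase genes Gins1, E2f1 and Rrm2 fell (log2 fold changes -0.69 ± 0.16, -0.62 ± 0.16 and -0.86 ± 0.25; adjusted p = 0.0124, 0.0179 and 0.031). The share called lower, 3 of 22, was near the 11.1% of all genes. Gins1 and E2f1 lie on chr2 too. Pygb and Gm14150, near Gins1, had log2 fold changes of -0.39 and -0.44. Cdk5rap1 and Pxmp4, near E2f1, had -0.49 and -1.35, and the part of that location was not tested. For S phase genes the covariate fit called 0 of 22, with 1 at an unadjusted p under 0.05 (median -0.23), and against control replicate 4 alone the median was -0.14, with 0 higher and 0 lower of 22 at an unadjusted p under 0.05. No S phase gene was called without control replicate 2, and 1 without control replicate 3 or poly I:C replicate 2 or 3.

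Among 20 p53 targets and apoptosis genes, 4 fell and 1 rose, against 11.1% of all genes called lower and 8.52% called higher. For p53 and apoptosis genes the covariate fit called 1 of 20, lower (median -0.06), and against control replicate 4 alone the median was -0.05, with 0 higher and 1 lower of 20 at an unadjusted p under 0.05. Gadd45a, a growth arrest gene, measured 54.1, 65.3, 43 and 16.7 CPM in the controls and 12, 10.1, 11.4 and 8.88 CPM under poly I:C (log2 fold change -2.08 ± 0.38, adjusted p = 0.00354). The fall held without any 1 library and had a log2 fold change of -0.65 (unadjusted p = 0.028) against control replicate 4 alone. Bbc3, the proapoptotic PUMA, fell by 1.48 ± 0.34 in log2 (adjusted p = 0.0096). Cdkn2a, the Ink4a and Arf locus, measured 109, 118, 91.2 and 58.2 CPM in the controls and 42.9, 27.3, 26.3 and 37.8 CPM under poly I:C (log2 fold change -1.49 ± 0.41, adjusted p = 0.0234), a call lost without control replicate 1 or 2 or poly I:C replicate 2 or 3 (up to 0.0742). The list held 2 called genes without control replicate 1 or 2 or poly I:C replicate 2 or 3, 3 without control replicate 3 or poly I:C replicate 1 or 4, and 10 without control replicate 4.

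The 10 genes called with all 4 controls and with the smallest p once the Krt5 to Sox10 ratio was a covariate are given next. Higher were Slc8a1, a sodium-calcium exchanger, Tlr8, a receptor for single-stranded RNA, Tlr4, Csf3r, Gpr141, Prune2, Tex14 and Adam17, the sheddase of Tnf. Tlr8 measured 2.88, 4.41, 5.39 and 1.24 CPM in the controls and 15.7, 28.2, 19.6 and 18.6 CPM under poly I:C (log2 fold change 2.56 ± 0.46, adjusted p = 0.00344). Prune2 measured 3.8, 3.35, 4.71 and 3.63 CPM in the controls and 14.7, 19.2, 14.3 and 15.2 CPM under poly I:C (log2 fold change 2.03 ± 0.21, adjusted p = 0.000597). Slc8a1 measured 1.41, 1.47, 1.91 and 0.99 CPM in the controls and 4.74, 10.8, 9.26 and 5.48 CPM under poly I:C (log2 fold change 2.38 ± 0.34, adjusted p = 0.00157). Gpr141 and Tex14 rose by 1.97 ± 0.42 and 2.16 ± 0.3 (adjusted p = 0.00696 and 0.00149). Lower were Pabpn1, the nuclear poly(A)-binding protein, and Tssc4, with log2 fold changes of -0.67 ± 0.17 and -0.58 ± 0.14 (adjusted p = 0.0176 and 0.0125). Control replicate 4 was the control farthest from the treated libraries for Slc8a1, Tlr8, Csf3r, Gpr141, Tex14, Adam17, Pabpn1 and Tssc4. Adam17 measured 124, 123, 123 and 85.6 CPM in the controls and 133, 166, 162 and 150.3 CPM under poly I:C, and its call (log2 fold change 0.43 ± 0.14, adjusted p = 0.0485) was lost without 7 of the 8 libraries, all but poly I:C replicate 1 (up to 0.128). Without poly I:C replicate 2, Pabpn1 was not called (adjusted p = 0.0519).

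Against control replicate 4 alone edgeR called no gene. The genes called with all controls that ranked first there by p were Pabpn1, Mphosph8, Arl11, Filip1 and Csf3r, in that order. Their log2 fold changes against that control were -1.14, -1.14, 2.83, 2.3 and 2.97. Mphosph8, a reader of histone H3 methylation in gene silencing, measured 136, 105, 69.6 and 122 CPM in the controls and 50.3, 51.5, 58.5 and 59.9 CPM under poly I:C (log2 fold change -0.97 ± 0.16, adjusted p = 0.00264). Filip1 measured 1.3, 1.63, 1.23 and 1.07 and 5.07, 5.94, 5.51 and 4.67 CPM (log2 fold change 2.01 ± 0.29, adjusted p = 0.00157). Neither overlapped between groups.

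The poly I:C effect in these tumours was set against that in the tumours titled 4T1 with a joint edgeR fit of all 31 libraries, added after the data were seen. Of 18956 genes, 2108 (11.1%) differed in effect, 1028 (5.42%) with the higher log2 fold change in MT and 1080 (5.7%) with the lower. Of the 24 macrophage markers 20 differed, all with the higher effect in MT, and in 4T1 7 of them fell and none rose. Csf1r had a log2 fold change of -0.96 in 4T1 (adjusted p = 0.0203), a difference of 2.72 ± 0.3 between models (adjusted p = 1.54e-05), and C1qa had -1.14 in 4T1 (adjusted p = 0.00891) and a difference of 2.56 ± 0.29 (adjusted p = 1.85e-05). The difference was 3.7 ± 0.58 for Mrc1 and 4.5 ± 0.56 for Pdcd1lg2 (adjusted p = 0.000247 and 3.24e-05).

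Class II genes went the same way, with 8 of 11 differing. H2-Ab1 had -1.46 in 4T1 (adjusted p = 0.0148) and a difference of 2.72 ± 0.41 (adjusted p = 0.000175), and Cd74 a difference of 2.23 ± 0.31 (adjusted p = 7.26e-05). Ctss differed by 2.54 ± 0.3 (adjusted p = 2.27e-05), Eng by 1.63 ± 0.28 (adjusted p = 0.00072) and Ngp by 5.11 ± 0.96 (adjusted p = 0.00145). Of the 17 granule and oxidase genes, 7 differed with the higher effect in MT and 1 with the lower, and their 4T1 median was -0.06. Of the 23 neutrophil markers, 2 differed with the higher effect in MT and 3 with the lower. The markers had a median log2 fold change of 1.72 in 4T1 against 1.79 in MT, and 4 were called higher in 4T1. Complex I subunits differed in 11 of 37 cases, all with the lower effect in MT, as for Ndufa3 (-0.74 ± 0.15, adjusted p = 0.00232). No interferon-stimulated gene of 32 and no basal keratin or myoepithelial gene of 24 had a difference called by edgeR, with 3 of each list at an unadjusted p under 0.05. By the design text the models also differ in host strain, and they differ in which libraries stand apart, both of which cannot be told apart from a difference in response.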

How the data were processed

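The authors deposited 1 table of whole-number read counts, not normalized, for 39017 genes. Per the submitters' processing notes the tools were Trimmomatic 0.32.48, STAR 2.3.0 and featureCounts 1.4.4 with mm10 (GRCm38). Per the labels' protocols the libraries were strand-specific and poly(A)-selected. The annotation and the strand setting of the counting are not given in the sources used here, so reads of overlapping genes may be shared. The 16 MT libraries were fitted together in edgeR 4.0.16 (R 4.3.3, limma 3.58.1) after filterByExpr (minimum count 10, minimum total 15) and TMM scaling, as 4 groups that share 1 estimate of the spread, with a quasi-likelihood test of poly I:C minus control and Benjamini-Hochberg adjustment over 17857 genes. CPM are TMM-scaled. The SE is the size of the log2 fold change divided by the square root of F. Alternatives included DESeq2 1.42.0. Coordinates and exon lengths come from GENCODE M21 on GRCm38. Promoters come from RefSeq on GRCm38.p6. A joint edgeR fit of all 31 libraries, for the difference between MT and 4T1, was added after the data were seen. Reads of near-identical copies (globins, stefins, Gbp8, Trim30a, Igkc) may be split, so these genes are uncertain. The edgeR fit was tested on simulated data. Those data held no library set apart as control replicate 4 is, so the test does not cover that feature of the controls.

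Named genes are the 10 largest increases and decreases without overlap (average log2 CPM of at least 1), up to 3 genes of smallest p per list for 34 lists, the 10 of smallest p with the covariate, the 5 without Sox10-high libraries, and the sensors and identity genes. Further genes named, such as Lcn2, Slpi, S100a8, Mrc1, C1qa, Isg15, Ifit1, Rsad2, Cxcl10, Cxcl11 and Cd3e, were chosen after their values were seen. Some genes that the rule names are not reported here. The members and lists were chosen with earlier results of these data known.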

Additional observations from a re-analysis of the deposited data

Results flagged for a closer look

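Among the genes named in the text, single libraries stood apart from the other 3 of their arm by Dixon's gap test at the 95% level. Chance alone gives about 1 such case in 20 groups. The genes were chosen from these data, some after their values were seen, so their count cannot be judged by that rate. Control replicate 2 stood above the other libraries of its arm, in CPM, for Atf4 (383). Control replicate 3 stood above the other libraries of its arm, in CPM, for Cd68 (40.9). Control replicate 4 stood below the other libraries of its arm, in CPM, for Csf3r (2.89), Lcn2 (711), Xbp1 (201), Csn3 (21.5), Snai1 (1.73), Aldoc (74.9), Bnip3l (146), Pdk1 (78.7), Adam17 (85.6) and Esrp2 (20.5). Control replicate 4 stood above the other libraries of its arm, in CPM, for Krt5 (2231), Krt14 (808), Krt8 (409), Ptprc (246), Trim30a (112), Cxcl10 (241), Icam1 (88), Tnfaip3 (45.6), Cd3e (65.9), Icos (28.3), Igkc (312) and Ighm (163). The same replicate stood above the others for Ms4a1 (79.6), Cma1 (1.98), Cpa3 (1.4), Tpsab1 (3.14), Lama3 (76.8), Col17a1 (209), Krt10 (6.27), Dsc2 (14.3), Krt4 (0.743), Vim (1529), Plin1 (5.12) and Tnni2 (4.79). The same replicate stood above the others for Igj (112) and Slc7a11 (18.5). Poly I:C replicate 1 stood above the other libraries of its arm, in CPM, for Arg1 (271) and Ndufa2 (56.5). Poly I:C replicate 2 stood above the other libraries of its arm, in CPM, for Ifit2 (174), Ms4a7 (101), Slc4a1 (15), Pparg (17.4), Plin1 (52), Fabp4 (858) and Prune2 (19.2). Poly I:C replicate 3 stood above the other libraries of its arm, in CPM, for Cxcl9 (3067), Il2ra (42.6), Igkc (2693), Ighm (417), Ms4a1 (147) and Igj (916). In all, 53 libraries were outlying among the 360 groups looked at, 36 of them control replicate 4, and the cause was not tested.

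The poly I:C effect differed between the MT and the 4T1 tumours, by the test of the difference in the joint fit, for Csf1r (2.72 log2, MT minus 4T1), Mrc1 (3.7), C1qa (2.56), Cd74 (2.23), H2-Ab1 (2.72), Ctss (2.54), Pdcd1lg2 (4.5), Ngp (5.11), Eng (1.63) and Ndufa3 (-0.74). The adjusted p-values stand in the text above.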

How the results depend on the processing

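The number of genes called, 3500 (1521 higher, 1979 lower), stayed within 1.5 times of that under DESeq2 (4843), edgeR with the size factors of DESeq2 (3456), all genes unfiltered (2680), a floor of 1 CPM in 4 libraries (3460) and a fit of the 8 libraries alone (4181). With the replicate number as a block, 3278 genes were called, of which 1699 were higher and 1579 lower. The deviations of same-numbered libraries from their group means correlated at 0.18, -0.01, -0.15 and -0.05. The control mean mixes replicate 4 with the others, so these values cannot decide whether the titles' numbers pair the samples. The block moved the share of called genes that were higher from 43.5% to 51.8%. limma voom with quality weights called 10642 genes (5452 higher, 5190 lower, 51.2% higher), the Krt5 to Sox10 covariate left 1569 (829 higher, 740 lower, 52.8% higher), and leaving out libraries with Sox10 above 10 CPM left 0 (0 higher, 0 lower). Leaving out 1 library at a time gave 1512 to 6256 called genes, with 700 to 3227 higher and 812 to 3029 lower. Of the single genes named, those whose sign changed against a call did so with the covariate or without the Sox10-high libraries: Csn3 (1.75 and 2.37 log2), Snai1 (0.45 and 0.53), Xbp1 (0.19 and 0.24), Sox10 (0.24 without those libraries, a value that their selection fixes), S100a8 (3.24 with the covariate, where it passed the threshold at an adjusted p of 0.0499), Aldoc (0.03 with the covariate) and Prtn3 (1.15 and 1.35). The cause was not tested.

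Genes below the filter on low counts were not tested. One limit is the control arm, in which replicates 1 to 3 were alike and replicate 4 stood apart. The fit against control replicate 4 alone has no control spread of its own, so its p-values assume the spread of the other groups. The labels give no dose, time or animal, and a list's count with 1 of the 8 libraries left out is given above where it moved by over 1.5 times.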
